A study of Mus musculus with 8 samples.

Results

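The genes described here are 8 genes of ketone body metabolism and of the hepatic fasting response, taken by symbol from a liver RNA-seq table of 19267 genes: *Acat1*, *Bdh1*, *Fgf21*, *Pdk4*, *Angptl4*, *Vnn1*, *Creb3l3* and *Ppargc1a*. All 8 were found once in the table, and all 8 passed the filter on low counts that left 13993 genes for testing. Livers came from male C57BL/6 mice that started a Lieber-DeCarli liquid diet at 6 weeks of age and were 9 weeks old when sampled after 21 days. The EtOH diet held 5% (w/v) alcohol and the Control diet held isocaloric maltose dextrin in its place, and the study's methods state that mice were pair-fed. The genotypes were WT, described in those methods as Cre mice, and Elf4fl/fl-Villin-Cre (Elf4-/- from here on), in which a villin promoter drives Cre in the intestinal epithelium, so the liver itself is not the tissue in which *Elf4* was deleted. Each genotype was kept on each diet, which made 4 groups of 2 libraries. The labels do not say whether the 2 libraries of a group came from separate animals, so p-values measure only the spread between these libraries. How long before sampling the mice last fed is not given in the sources used here.

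Ketone bodies are made in hepatocyte mitochondria from the acetyl-CoA of fatty acid oxidation and are exported for use by other organs. During fasting, the nuclear receptor PPARA is activated by fatty acids and switches on genes of fatty acid oxidation and ketogenesis in the liver, together with the hormone FGF21, the pyruvate dehydrogenase kinase PDK4, the lipoprotein lipase inhibitor ANGPTL4 and the pantetheinase VNN1. The membrane-bound factor CREB3L3 (CREBH) and the coactivator PGC-1alpha, encoded by *Ppargc1a*, are regulators of the same response, and glucagon acts on the latter through CREB. Ethanol oxidation in the liver also changes the supply of acetate, acetyl-CoA and reducing equivalents on which these enzymes work.

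Promoter sequence from RefSeq (GRCm38.p6) was found for 5 of the 8 genes, in 7 windows. Those of *Pdk4*, *Fgf21* and *Ppargc1a* are shown because these genes gave the largest rise, a rise of the secreted hormone and the fall described below. Each run ends at the base before the annotated gene start and is written 5′ to 3′ on the gene's own strand, and capitals mark motif matches.
*Pdk4*, chr6:5496310-5496528, minus strand: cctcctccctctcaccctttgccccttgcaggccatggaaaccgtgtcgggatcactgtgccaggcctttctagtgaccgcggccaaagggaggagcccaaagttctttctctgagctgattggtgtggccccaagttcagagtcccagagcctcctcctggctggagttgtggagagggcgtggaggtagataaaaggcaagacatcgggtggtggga
*Fgf21*, chr7:45615491-45615740, minus strand: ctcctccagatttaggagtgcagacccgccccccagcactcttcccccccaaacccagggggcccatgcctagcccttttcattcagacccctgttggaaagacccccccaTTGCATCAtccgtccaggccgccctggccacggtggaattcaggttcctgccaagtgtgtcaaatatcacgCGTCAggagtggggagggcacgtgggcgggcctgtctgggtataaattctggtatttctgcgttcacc
*Ppargc1a*, chr5:51567727-51567975, minus strand: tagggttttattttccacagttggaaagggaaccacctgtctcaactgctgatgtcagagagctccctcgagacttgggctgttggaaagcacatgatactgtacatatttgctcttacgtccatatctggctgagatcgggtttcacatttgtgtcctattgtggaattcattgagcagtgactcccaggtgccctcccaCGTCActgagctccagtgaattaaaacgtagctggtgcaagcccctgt
For a description, 3 motifs were searched on both strands of the full windows of 250 bases before and 50 bases after the start: the DR1 element bound by PPARA with RXR (AGGTCA, 1 base, AGGTCA, with up to 2 mismatches), the CRE core TGACG bound by CREB, and the amino acid response element bound by ATF4 (TGATG, 1 base, AA). The *Fgf21* window held a match to the amino acid response element on the opposite strand, 139 bases before the gene start, and a CRE core at 68 bases. The *Ppargc1a* window held a CRE core at 49 bases, and none of these letters were in the *Pdk4* window. A *Creb3l3* window, not shown, held a CRE core 239 bases before its start and a DR1 match with 2 mismatches at 209 bases. Over 32851 promoter windows of the same length, the amino acid response element was found in 4.0%, the CRE core in 20.8% and DR1 in 3.9%. *Acat1*, *Angptl4* and *Vnn1* had no entry.

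Library totals ran from 6171051 to 9157362 counts. The share of counts on 27 genes of the mitochondrial genome was 33.7% and 23.4% in the WT libraries under Control and 12.5% and 10.8% in those under EtOH. The Elf4-/- libraries had 18.7% and 18.5% (Control) and 22.1% and 18.3% (EtOH). The share was thus lower under EtOH in WT, the genotype with more calls for diet. Leaving these genes out changed the call of none of the 8 genes in WT. With TMM factors this refit hardly moved the other genes (log2 fold change of *Acat1* in WT 0.834 before and 0.827 after, of *Ppargc1a* -1.332 and -1.339). It therefore cannot show what part the share, or what lies behind it, had in the calls, which was not tested. Values are CPM, counts relative to the library total after scaling by TMM factors. The Elf4-/- EtOH libraries stood further apart than those of the other groups, with an SD over 9398 genes of the log2 difference between replicates of 0.681, against 0.354 to 0.504 in the other groups. *Elf4* itself was low in every liver library, at 0.895 to 4.51 CPM (6 to 36 counts), and did not separate the genotypes (log2 fold change -0.06 under EtOH and -0.54 under Control, edgeR adjusted p = 0.985 and 0.912), so its level in liver checks neither the deletion nor the labels.

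Under the EtOH diet in WT mice, *Pdk4*, *Fgf21*, *Vnn1* and *Acat1* rose and *Ppargc1a* fell. That is 4 of 8 genes called higher and 1 called lower (adjusted p under 0.05 in the quasi-likelihood test of edgeR), where 10.8% of all tested genes were called higher and 10.8% lower. Their median log2 fold change was 0.87, beside 0.01 over all tested genes. Of all genes called in WT 50.2% were higher with TMM factors and 84.4% with library totals alone, which moved the median of all genes to 0.44, and for the average over genotypes the shares were 50.5% and 73.8%. In Elf4-/- mice only *Pdk4* was called, 1 of 8 higher and 0 lower, where 1.71% of all genes were called higher and 1.18% lower. At an unadjusted p under 0.05, 5 of the 8 genes passed in WT, as did 36.4% of all tested genes, and 3 passed in Elf4-/-, as did 21.2% of all genes. DESeq2 called 5 and 2 of the 8, and 2809 and 811 of all genes. Averaged over the genotypes, *Pdk4*, *Vnn1*, *Fgf21* and *Acat1* were called higher and none lower, against 14.1% and 13.8% of all genes. No call in one genotype and not in the other was a tested difference between genotypes, and the interaction of genotype and diet is given further on.

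**Figure D1:**
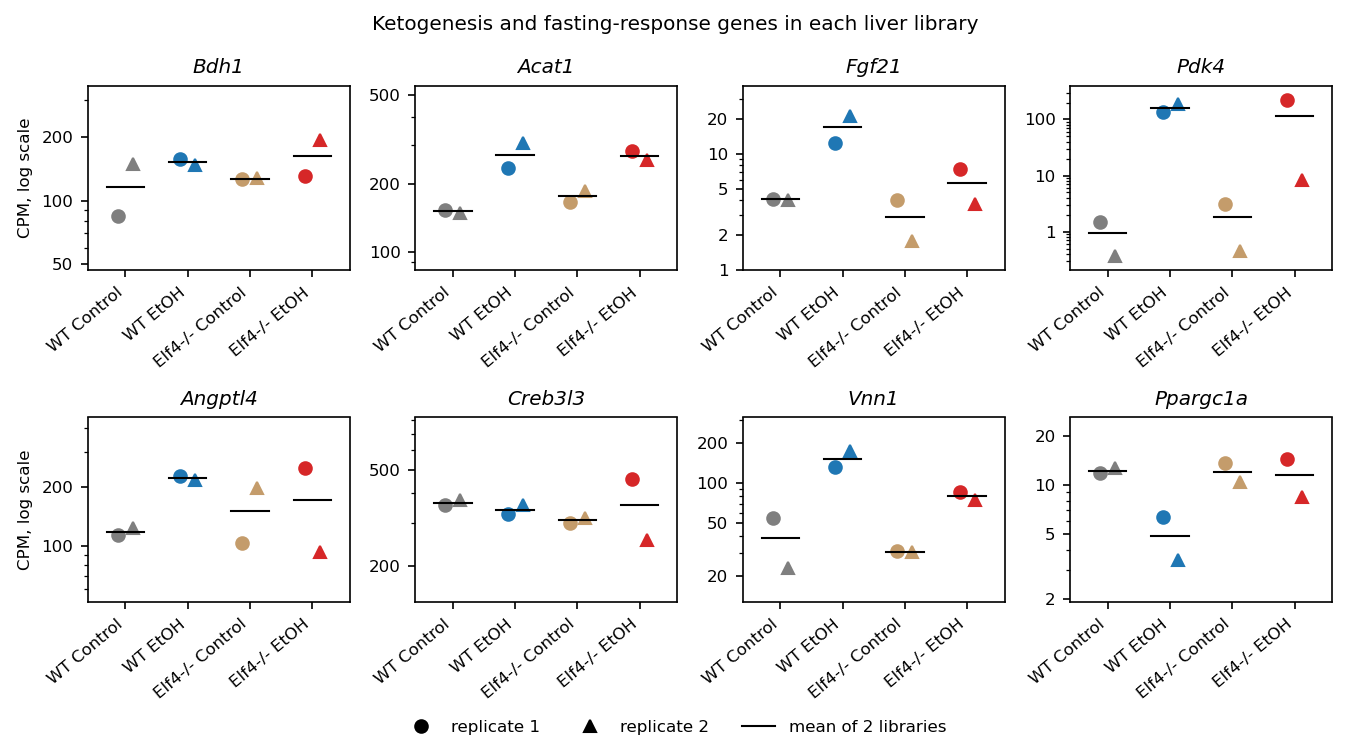
CPM of each gene (log axis, own range per panel) in the 8 liver libraries, by group; circles are replicate 1, triangles replicate 2 and bars the mean of 2 libraries. *Pdk4* sat between 0.368 and 3.18 CPM in the 4 Control libraries and at 8.36 to 219 CPM in the 4 EtOH libraries, and *Ppargc1a* was lowest in the 2 WT EtOH libraries.

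*Acat1* encodes mitochondrial acetoacetyl-CoA thiolase, the enzyme that makes acetoacetyl-CoA for ketogenesis and cleaves it again when ketone bodies are burned (chromosome 9, 53580522 to 53610382, minus strand, GRCm38). It stood at 154 and 149 CPM in WT Control and at 236 and 305 CPM in WT EtOH, and at 168 and 188 CPM in Elf4-/- Control and 282 and 256 CPM in Elf4-/- EtOH. Every EtOH library lay above every Control library. EtOH against Control gave a log2 fold change of 0.83 ± 0.22 (SE) in WT (edgeR adjusted p = 0.0235) and 0.60 ± 0.22 in Elf4-/- (adjusted p = 0.153), and averaged over genotypes 0.72 ± 0.15 (adjusted p = 0.00782). The WT call was lost without any 1 of the 4 WT libraries (adjusted p from 0.0564 without WT EtOH replicate 1 to 0.192 without WT EtOH replicate 2), with WT Control replicate 1 and replicate 2 giving 0.0836 and 0.0878, while the averaged call held in all 8 such fits.

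*Bdh1* encodes the mitochondrial dehydrogenase that interconverts acetoacetate and 3-hydroxybutyrate with NADH (chromosome 16, 31422280 to 31458901, plus strand). It was at 84.3 and 148.5 CPM in WT Control, 158 and 147 CPM in WT EtOH, 126 and 127 CPM in Elf4-/- Control, and 131 and 193 CPM in Elf4-/- EtOH. The WT groups overlapped, and the difference between the WT Control libraries was wider than the difference between the WT diets. In the fit, the log2 fold change was 0.39 ± 0.29 in WT and 0.36 ± 0.29 in Elf4-/- (SE; edgeR adjusted p = 0.355 and 0.509). *Bdh1* was therefore not called, although its average over genotypes was called once WT Control replicate 2 was left out (log2 fold change 0.61, adjusted p = 0.0471). *Bdh1* shares 533 exon bases with the antisense gene *Gm15743*. Whether counting used strand is not given in the sources used here. *Gm15743* had 3 to 36 counts per library, beside 452 to 1457 for *Bdh1*.

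Of the 9 other genes of the ketone body pathway, 4 were called higher and 2 lower in WT, and 3 higher and 0 lower in Elf4-/-. Of the monocarboxylate transporters, which carry ketone bodies and lactate, *Slc16a7* rose in both genotypes (log2 fold change 1.498 in WT and 1.24 in Elf4-/-), *Slc16a1* rose in WT (1.58, against 0.74 in Elf4-/-, not called) and *Slc16a6*, a ketone body exporter of hepatocytes, fell in WT (-1.58, against -0.37 in Elf4-/-, not called).

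*Bdh2*, a cytosolic dehydrogenase of 3-hydroxybutyrate, fell in WT from 8.95 and 11.96 to 3.16 and 2.85 CPM (log2 fold change -1.80 ± 0.46, adjusted p = 0.0225) and stood at 15.2 and 21.0 CPM in Elf4-/- Control and 2.55 and 7.70 CPM in Elf4-/- EtOH (-1.79 ± 0.43, adjusted p = 0.0555). *Oxct1*, the CoA transferase with which other organs use ketone bodies and which hepatocytes nearly lack, rose in WT from 0.932 and 0.736 to 3.29 and 2.85 CPM (log2 fold change 1.86 ± 0.58, adjusted p = 0.0457). *Acat2*, the cytosolic thiolase of sterol synthesis, rose in Elf4-/- (log2 fold change 0.82 ± 0.18, adjusted p = 0.0470). *Aacs*, the cytosolic acetoacetyl-CoA synthetase, was not called, and reached 296 CPM in 1 Elf4-/- EtOH library against 19.7 to 76.8 CPM in the other 7. Without 1 library at a time, the WT count of this list ran from 2 to 5 higher and 0 to 2 lower, with 2 and 0 without WT EtOH replicate 2. In Elf4-/- the 3 higher calls became 4 without Elf4-/- EtOH replicate 2, 1 without Elf4-/- EtOH replicate 1 and 0 without any of the other 6 libraries.

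*Pdk4* encodes the kinase that phosphorylates and shuts off the pyruvate dehydrogenase complex, and so spares pyruvate when fat is burned (chromosome 6, 5483351 to 5496309, minus strand). It was nearly silent under the Control diet, at 1.49 and 0.368 CPM in WT (8 and 2 counts) and 3.18 and 0.448 CPM in Elf4-/- (31 and 3 counts). Under EtOH it stood at 135 and 186 CPM in WT (1066 and 1821 counts) and at 219 and 8.36 CPM in Elf4-/- (1375 and 63 counts). All 4 EtOH libraries lay above all 4 Control libraries, but replicate 2 of Elf4-/- EtOH was far below the other 3. The log2 fold change was 7.41 ± 1.497 in WT and 5.84 ± 1.30 in Elf4-/- (SE; edgeR adjusted p = 0.00907 and 0.0456), the widest errors of the 8 genes.

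The *Pdk4* rise in Elf4-/- rested on 1 library. Without Elf4-/- EtOH replicate 1 its log2 fold change was 2.06 (adjusted p = 0.1202), and without replicate 2 it was 6.75 (adjusted p = 4.66e-05). The call in Elf4-/- was also lost without any of the other libraries than Elf4-/- EtOH replicate 2, at an adjusted p of 0.0692 to 0.294. In WT the log2 fold change ran from 6.73 without WT Control replicate 2 to 8.70 without WT Control replicate 1, and the call was lost in both (adjusted p = 0.0720 and 0.0619), where a Control group of 1 library was assumed to vary like the other groups. Averaged over genotypes the log2 fold change was 6.62 ± 0.99 (adjusted p = 0.00163), and the call held in all 8 fits without 1 library.

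Of 12 related genes of the pyruvate dehydrogenase switch, 11 were tested, of which 3 were called higher and 1 lower in WT, and 1 higher in Elf4-/-. Without 1 library at a time, the WT counts ran from 1 higher, without WT EtOH replicate 2, to 4, and the lower call was lost without WT Control replicate 2 or either WT EtOH library. The Elf4-/- call was lost without either WT EtOH library, either Elf4-/- Control library or Elf4-/- EtOH replicate 1. *Mpc1* and *Mpc2*, the subunits of the mitochondrial pyruvate carrier, rose in WT (log2 fold change 1.41 ± 0.24 and 1.48 ± 0.27, edgeR adjusted p = 0.00460 and 0.00576), and *Mpc1* also rose in Elf4-/- (1.03 ± 0.23, adjusted p = 0.0479). *Pdha1*, the catalytic subunit that *Pdk4* acts on, rose in WT by 0.68 ± 0.20 (adjusted p = 0.0343). *Pdk2*, the kinase that is abundant in fed liver, fell in WT from 72.5 and 100.5 to 44.8 and 36.6 CPM (log2 fold change -1.09 ± 0.27, adjusted p = 0.0185). Per kilobase of exon, *Pdk4* in WT EtOH stood at 45.6 CPM, from 0.265 CPM in WT Control.

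*Fgf21* encodes a hormone that the liver releases in fasting and under protein restriction, endoplasmic reticulum stress and alcohol (chromosome 7, 45613886 to 45615490, minus strand). It was at 4.10 and 4.05 CPM in WT Control (22 counts in each) and 12.5 and 21.4 CPM in WT EtOH (99 and 210 counts). In Elf4-/- it was at 3.997 and 1.79 CPM under Control and 7.49 and 3.71 CPM under EtOH (39, 12, 47 and 28 counts). The WT groups did not overlap and the Elf4-/- groups did. EtOH against Control gave a log2 fold change of 2.06 ± 0.47 in WT and 0.89 ± 0.48 in Elf4-/- (SE; edgeR adjusted p = 0.0141 and 0.316). The WT call was lost without WT Control replicate 1 or 2 (adjusted p = 0.0760 and 0.0715) and without WT EtOH replicate 2 (log2 fold change 1.61, adjusted p = 0.127), which also ended the averaged call (1.25, adjusted p = 0.0557, from 1.48 ± 0.34 and 0.0106).

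The 5 listed genes of FGF receptors and their co-receptor were all tested, with 0 called higher and 3 lower in WT and 0 in either direction in Elf4-/-, where none passed in edgeR. *Fgfr4*, the main FGF receptor of hepatocytes, fell in WT from 64.9 and 60.5 to 24.4 and 25.2 CPM (log2 fold change -1.34 ± 0.23, adjusted p = 0.00516), and stood at 39.0 and 35.4 CPM in Elf4-/- Control and 28.5 and 46.2 CPM in Elf4-/- EtOH (0.01 ± 0.23, adjusted p = 0.986). *Fgfr3* and *Fgfr2* fell in WT by 1.78 and 0.74 on the log2 scale (adjusted p = 0.0177 and 0.0487). *Fgfr1* and the co-receptor *Klb* were not called in either genotype (log2 fold changes of -0.56 and 0.81 in WT, and of -0.92 and -0.03 in Elf4-/-). Without WT EtOH replicate 2 none of the 5 was called in WT, and 1 was called without WT EtOH replicate 1 or WT Control replicate 1.

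ATF4 is a factor of the stress response that acts on *Fgf21*. Of 12 ATF4 genes and targets, 0 were called higher and 1 lower in WT, and 1 was called higher in Elf4-/-. *Trib3*, a pseudokinase induced by ATF4, fell in WT from 24.6 and 23.9 to 7.71 and 7.64 CPM (log2 fold change -1.66 ± 0.36, edgeR adjusted p = 0.0116). *Vldlr*, a lipoprotein receptor, rose in Elf4-/- (log2 fold change 2.18 ± 0.47, adjusted p = 0.0414). *Atf4* itself had log2 fold changes of 0.23 and 0.54 (adjusted p = 0.508 and 0.220). Without WT Control replicate 1 or either WT EtOH library the WT count of lower genes was 0, and the Elf4-/- count of higher genes was 0 without any library other than Elf4-/- EtOH replicate 2, whose omission raised it to 4.

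*Angptl4* encodes a secreted inhibitor of lipoprotein lipase that rises in many tissues with fasting (chromosome 17, 33773750 to 33781830, minus strand). It stood at 113 and 123 CPM in WT Control and 226 and 216 CPM in WT EtOH, without overlap, and at 104 and 198 CPM in Elf4-/- Control and 251 and 93.3 CPM in Elf4-/- EtOH, where the EtOH libraries were the highest and the lowest of the 8. In the fit, the log2 fold change was 0.90 ± 0.42 in WT and 0.19 ± 0.42 in Elf4-/- (SE; edgeR adjusted p = 0.153 and 0.833). The SD was 7.01 and 7.44 CPM in the WT groups and 67.0 and 111.5 CPM in the Elf4-/- groups, which share 1 estimate of the spread in the fit. The WT difference was called with library totals alone (log2 fold change 1.33, adjusted p = 0.0294), when only the WT libraries were fitted (0.91, adjusted p = 0.0103) and when either Elf4-/- EtOH library was left out (adjusted p = 0.0278 without replicate 1 and 0.0280 without replicate 2). In Elf4-/- it turned to -0.69 without Elf4-/- EtOH replicate 1.

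Of 11 other genes of lipoprotein lipase control, 2 were called higher and 2 lower in WT, and none in Elf4-/-. The higher calls fell to 0 without either WT Control library or WT EtOH replicate 2 and to 1 without WT EtOH replicate 1 or either Elf4-/- Control library. The lower calls fell to 0 without either WT EtOH library and to 1 without either WT Control library, and were 4 without either Elf4-/- EtOH library. *Gpihbp1*, which anchors the lipase on capillary endothelium, rose in WT from 2.61 and 3.68 to 12.1 and 15.6 CPM (log2 fold change 2.14 ± 0.48, edgeR adjusted p = 0.0141). *Apoa5*, a secreted activator of triglyceride clearance, rose in WT (1.41 ± 0.40, adjusted p = 0.0326), while *Angptl6* fell by 1.37 and the lipase maturation factor *Lmf1* fell by 0.70 on the log2 scale (adjusted p = 0.00875 and 0.0439). *Angptl8*, a feeding-induced gene of the list, is named after its values were seen: it was at 232 and 202 CPM in WT Control, 27.1 and 21.1 CPM in WT EtOH, 91.6 and 57.4 CPM in Elf4-/- Control, and 9.25 and 264 CPM in Elf4-/- EtOH. It was not called in either genotype (log2 fold change -3.17 ± 1.02 and 0.87 ± 0.94, adjusted p = 0.0503 and 0.633).

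*Vnn1* encodes the pantetheinase that recycles pantothenate for coenzyme A (chromosome 10, 23894688 to 23905343, plus strand). It was at 54.8 and 23.0 CPM in WT Control and 133 and 174 CPM in WT EtOH, and at 30.7 and 30.3 CPM in Elf4-/- Control and 85.9 and 75.6 CPM in Elf4-/- EtOH. Every EtOH library lay above every Control library, and the WT EtOH libraries lay above the Elf4-/- EtOH libraries. The log2 fold change was 1.98 ± 0.34 in WT and 1.40 ± 0.34 in Elf4-/- (SE; edgeR adjusted p = 0.00498 and 0.0564), and 1.69 ± 0.24 averaged over genotypes (adjusted p = 0.00132). The WT and averaged calls held in all 8 fits without 1 library, with the WT log2 fold change at 1.49 without WT Control replicate 2 and 2.74 without WT Control replicate 1. In Elf4-/- the call appeared with DESeq2 (adjusted p = 0.00291), without the filter on low counts (0.0325), and without WT Control replicate 1, WT Control replicate 2 or Elf4-/- EtOH replicate 2 (0.0251, 0.0257 and 0.0288).

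Of 8 other genes of pantetheine and coenzyme A synthesis, 3 were called higher and 1 lower in WT and none in Elf4-/-. The higher calls fell to 1 without WT Control replicate 1 or either WT EtOH library, and the lower call was lost without WT EtOH replicate 1. *Ppcs*, which joins pantothenate and cysteine, rose from 14.9 and 14.2 to 36.4 and 34.7 CPM in WT (log2 fold change 1.29 ± 0.23, edgeR adjusted p = 0.00568). *Coasy*, the last enzyme of the pathway, and the pantothenate kinase *Pank1* rose by 0.90 ± 0.23 and 0.72 ± 0.21 (adjusted p = 0.0217 and 0.0367). *Ppcdc*, the decarboxylase between *Ppcs* and *Coasy*, fell by 1.12 ± 0.20 on the log2 scale (adjusted p = 0.00592). *Vnn3*, the other pantetheinase of the list, was at 46.0 to 85.9 CPM over the 8 libraries and was called only in the average over genotypes (log2 fold change 0.46 ± 0.13, adjusted p = 0.0258).

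*Creb3l3* encodes a liver factor held in the endoplasmic reticulum membrane and released by cleavage, which acts on *Fgf21* and apolipoprotein genes (chromosome 10, 81084324 to 81098874, minus strand). Its transcript was the most abundant of the 8 per length in every group, at 102.6 to 121 CPM per kilobase of exon on group means. It was at 356 and 374 CPM in WT Control, 328 and 356 CPM in WT EtOH, 302 and 317 CPM in Elf4-/- Control, and 457 and 255 CPM in Elf4-/- EtOH. The Elf4-/- EtOH libraries were again the highest and the lowest of the 8. EtOH against Control gave a log2 fold change of -0.10 ± 0.28 in WT and 0.20 ± 0.28 in Elf4-/- (SE; edgeR adjusted p = 0.832 and 0.721), and neither was called in any alternative. Scaling by library totals alone turned the WT value to 0.34.

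Of 8 CREB3L3 target genes, 2 were called higher and 1 lower in WT and none in Elf4-/-. The higher calls fell to 0 without either WT Control library or WT EtOH replicate 2 and to 1 without WT EtOH replicate 1 or either Elf4-/- Control library, and were 3 without either Elf4-/- EtOH library. The lower call held only without WT EtOH replicate 1 or either Elf4-/- EtOH library. The 2 called higher were *Fgf21* and *Apoa5*, given above, and the third was *Apcs*, serum amyloid P, which fell by 1.27 ± 0.39 on the log2 scale (edgeR adjusted p = 0.0424). *Crp* rose only in the average over genotypes (log2 fold change 0.87 ± 0.20, adjusted p = 0.0108), in which *Apoa4* fell by 0.86 ± 0.23 (adjusted p = 0.0199).

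*Ppargc1a* encodes PGC-1alpha, the coactivator of mitochondrial biogenesis and of fasting gluconeogenesis (chromosome 5, 51454250 to 51567726, minus strand). It was at 11.7 and 12.7 CPM in WT Control (63 and 69 counts) and 6.32 and 3.46 CPM in WT EtOH (50 and 34 counts). In Elf4-/- it was at 13.5 and 10.4 CPM under Control and 14.4 and 8.49 CPM under EtOH. The WT EtOH libraries were the lowest of the 8, and the Elf4-/- diet groups overlapped. In the fit, the log2 fold change was -1.33 ± 0.37 in WT and -0.08 ± 0.35 in Elf4-/- (SE; edgeR adjusted p = 0.0304 and 0.915). The WT call was lost without WT Control replicate 1 or 2 (adjusted p = 0.0893 and 0.105), without WT EtOH replicate 2 (log2 fold change -0.96, adjusted p = 0.207) and with library totals in place of TMM factors (-0.91, adjusted p = 0.0895).

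Of 11 genes of the PGC-1 family and its partners, none was called higher and 2 were called lower in WT, and none was called in Elf4-/-. The lower calls fell to 0 without WT EtOH replicate 1 and to 1 without WT EtOH replicate 2 or WT Control replicate 1, and were 3 without either Elf4-/- EtOH library. *Ppargc1b*, the close relative of *Ppargc1a*, fell in WT from 7.46 and 5.70 to 2.40 and 2.04 CPM (log2 fold change -1.57 ± 0.36, edgeR adjusted p = 0.0158) and had -1.29 ± 0.34 in Elf4-/- (adjusted p = 0.0718). *Esrra*, a nuclear receptor partner and target of PGC-1alpha, fell in WT (-1.13 ± 0.22, adjusted p = 0.00794). *Crtc2*, the CREB coactivator downstream of glucagon, fell only in the average over genotypes (-0.41 ± 0.13, adjusted p = 0.0377). *Ppara*, the receptor upstream of the fasting genes, had log2 fold changes of 0.45 ± 0.27 and 0.11 ± 0.27 (adjusted p = 0.260 and 0.844).

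**Figure D2:**
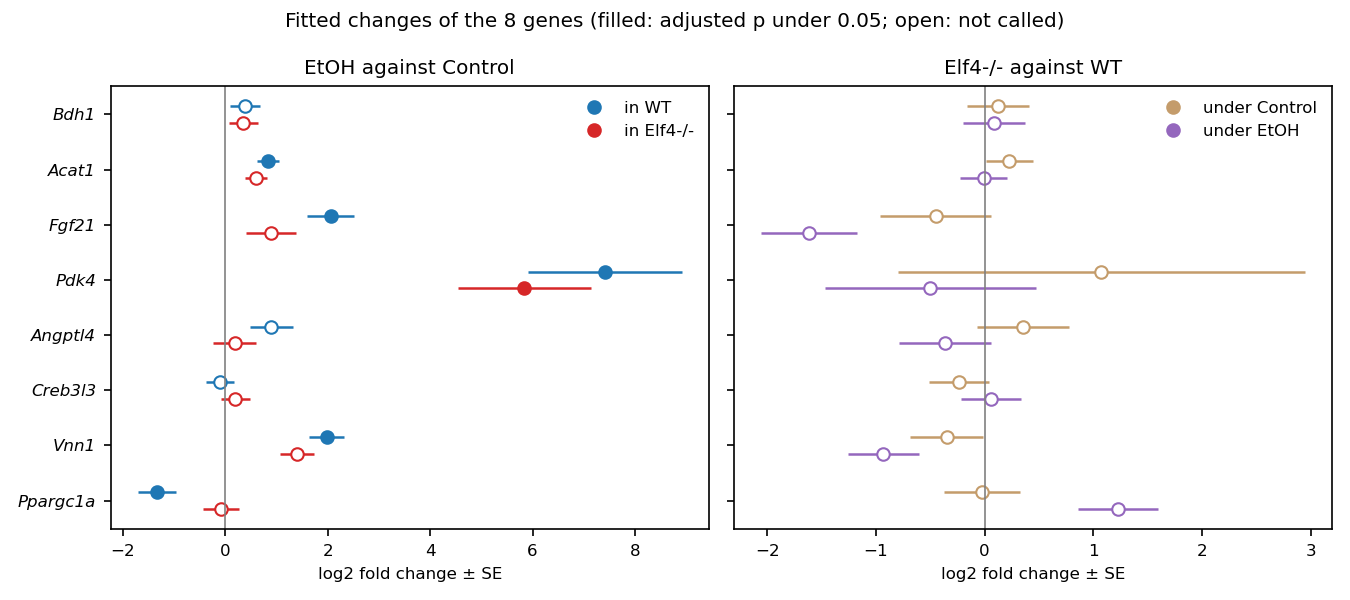
Fitted log2 fold change with its SE for each gene, for EtOH against Control in each genotype (left) and for Elf4-/- against WT under each diet (right); filled points passed an adjusted p of 0.05 in edgeR. *Pdk4* had the largest values, 7.41 in WT and 5.84 in Elf4-/-, and no point of the right panel is filled.

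The genes named above sat beside a broader set of PPARA target enzymes. Of 17 listed, 16 were in the table and tested, of which 13 were called higher and 0 lower in WT, and 5 higher and 0 lower in Elf4-/-. The microsomal fatty acid hydroxylase *Cyp4a14* stood at 28.3 and 1.10 CPM in WT Control and 2568 and 2717 CPM in WT EtOH (log2 fold change 7.49 ± 1.28, edgeR adjusted p = 0.00481), and at 56.6 and 20.4 CPM in Elf4-/- Control and 4362 and 968.5 CPM in Elf4-/- EtOH (6.11 ± 1.19, adjusted p = 0.0307). The thioesterase *Acot1* rose by 7.43 ± 0.49 in WT and 3.34 ± 0.37 in Elf4-/- (adjusted p = 0.000163 and 0.00516). The peroxisomal enzyme *Ehhadh* rose by 4.39 and 3.08, *Cyp4a10* by 4.56 and 3.63, and the lipid droplet protein *Plin2* by 2.96 and 2.13 on the log2 scale. *Cpt1a*, the gatekeeper of mitochondrial fatty acid entry (0.28 and -0.15, adjusted p = 0.457 and 0.776), and *Fabp1* (-0.73 and -0.84, adjusted p = 0.306 and 0.352) were not called in either genotype. Without 1 library the WT count ran from 7, without WT EtOH replicate 2, to 14, and the Elf4-/- count from 1, without either Elf4-/- Control library, to 10, without Elf4-/- EtOH replicate 2.

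Glucagon and FOXO1 switch on a further set of fasting genes, those of gluconeogenesis and amino acid breakdown. Of 10 tested, 1 was called higher and 3 lower in WT, and none in Elf4-/-. The lower calls fell to 0 without WT EtOH replicate 2, to 1 without WT Control replicate 2 and to 2 without WT Control replicate 1, and were 4 without either Elf4-/- EtOH library. The higher call was lost without WT Control replicate 1 or either WT EtOH library. *Pck1*, the cytosolic PEP carboxykinase of gluconeogenesis, fell in WT from 3995 and 5039 to 1852 and 860 CPM (log2 fold change -1.74 ± 0.49, edgeR adjusted p = 0.0335). *Sds*, serine dehydratase, and *Klf15*, a factor of amino acid breakdown, fell in WT by 2.45 and 1.41 on the log2 scale (adjusted p = 0.0116 and 0.00863). *Txnip*, which restrains glucose uptake, rose in WT (2.46 ± 0.60, adjusted p = 0.0192) and was at 202 and 40.1 CPM in Elf4-/- EtOH. The median log2 fold change of this list in WT was -0.52, beside 1.74 for the PPARA target enzymes.

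Of 11 feeding-induced genes, 10 were tested, of which 3 were called lower in WT, 1 lower in Elf4-/- and 0 higher in either. *Srebf1*, the master factor of lipogenesis, fell in WT from 262.5 and 326 to 39.96 and 50.03 CPM (log2 fold change -2.71 ± 0.57, edgeR adjusted p = 0.0109) and stood at 46.7 and 230 CPM in Elf4-/- EtOH. *Thrsp* and *Mlxipl* fell in WT (-1.55 and -0.80, adjusted p = 0.00450 and 0.0390), and *Pklr*, liver pyruvate kinase, fell in Elf4-/- (-1.46 ± 0.33, adjusted p = 0.0495). *Thrsp* was also the gene of these lists called higher in Elf4-/- than in WT under both diets, by 3.57 ± 0.28 under EtOH and 2.39 ± 0.26 under Control (adjusted p = 0.00173 and 0.0255). The call under EtOH was lost without WT EtOH replicate 1 (3.27, adjusted p = 0.0580), and that under Control without any of the 4 Control libraries (2.35 to 2.44, adjusted p from 0.170 to 0.226). Counts of lower genes for diet ran from 1 without either WT EtOH library to 4 in WT, and from 0 to 5, the latter without Elf4-/- EtOH replicate 2, in Elf4-/-.

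**Figure D3:**
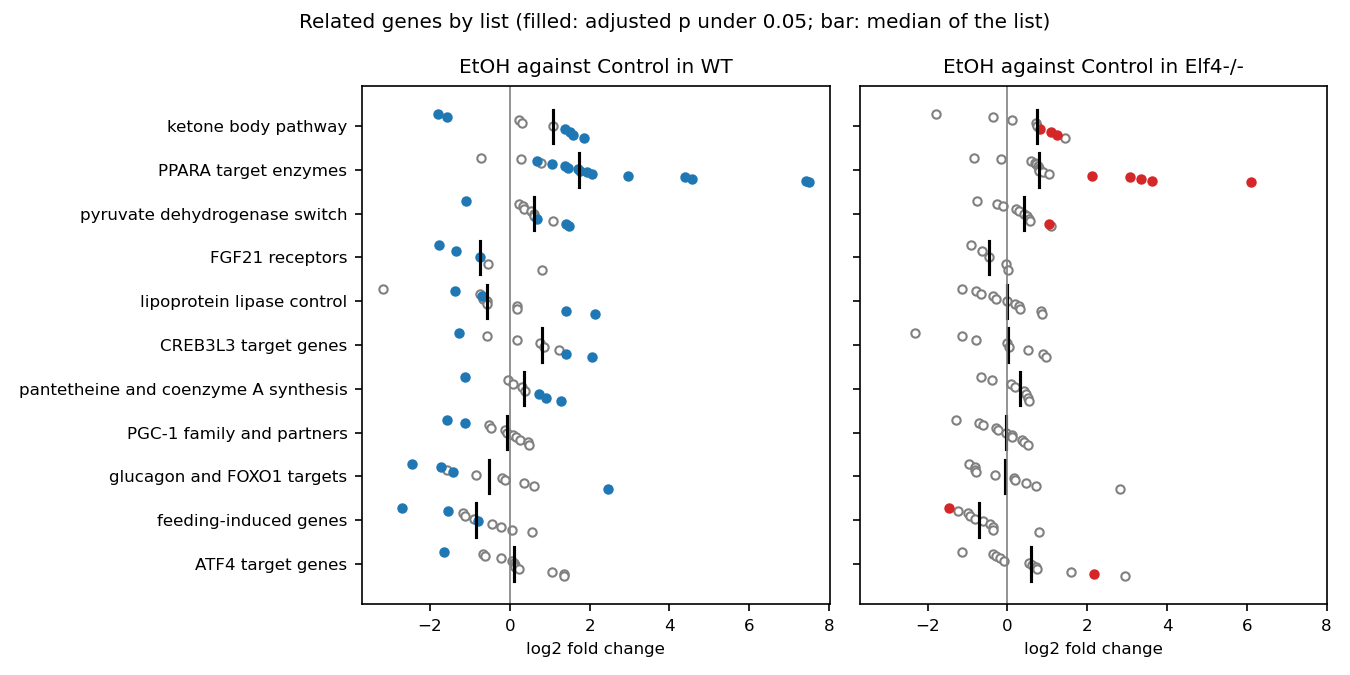
Log2 fold change of EtOH against Control for the tested genes of 11 lists of related genes, in WT (left) and Elf4-/- (right); each point is a gene, filled where the adjusted p was under 0.05, and black bars are list medians. The PPARA target enzymes reach 7.49 in WT and 6.11 in Elf4-/-, and the feeding-induced genes have medians of -0.85 and -0.71.

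Among the 8 genes, the 2 Elf4-/- EtOH libraries differed most on *Pdk4*. As log2 CPM of replicate 1 minus replicate 2, *Pdk4* differed by 4.67, *Angptl4* by 1.43, *Fgf21* by 0.96, *Creb3l3* by 0.84 and *Ppargc1a* by 0.74, with *Vnn1* and *Acat1* closer at 0.18 and 0.14 and *Bdh1* the other way at -0.56. A gap as wide as that of *Pdk4* was found in 0.14% of 9398 genes in this group, and one as wide as that of *Angptl4* in 3.66%. For the rest of the 8 genes this share ran from 10.13% for *Fgf21* to 75.67% for *Acat1*. Thus 7 of 8 genes were higher in replicate 1, where 49.6% of all tested genes were. The same held for 14 of 16 PPARA target enzymes (median difference 0.64), 9 of 10 glucagon and FOXO1 targets (1.58) and 10 of 12 ATF4 genes (0.85), while 9 of 10 feeding-induced genes were lower in replicate 1 (-0.78). In WT EtOH the same lists differed with medians of -0.22 for the PPARA targets, 0.79 for the glucagon and FOXO1 targets and -0.32 for the feeding-induced genes. Wide gaps were not particular to Elf4-/- EtOH. In Elf4-/- Control, *Pdk4* differed by 2.26, *Fgf21* by 1.05 and *Angptl4* by -0.935, as wide as in 0.11%, 1.56% and 2.12% of genes there. The share was 23.52% or more for the rest of the 8 genes in that group. Both WT groups had such gaps as well. In WT Control, *Pdk4* differed by 1.46 (8 and 2 counts) and *Vnn1* by 1.24, as wide as in 1.39% and 2.32% of genes there. In WT EtOH, *Ppargc1a* differed by 0.82 and *Fgf21* by -0.76, as wide as in 2.83% and 3.56%. For the rest of the 8 genes the share was 8.69% or more in WT Control and 13.28% or more in WT EtOH.

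**Figure D4:**
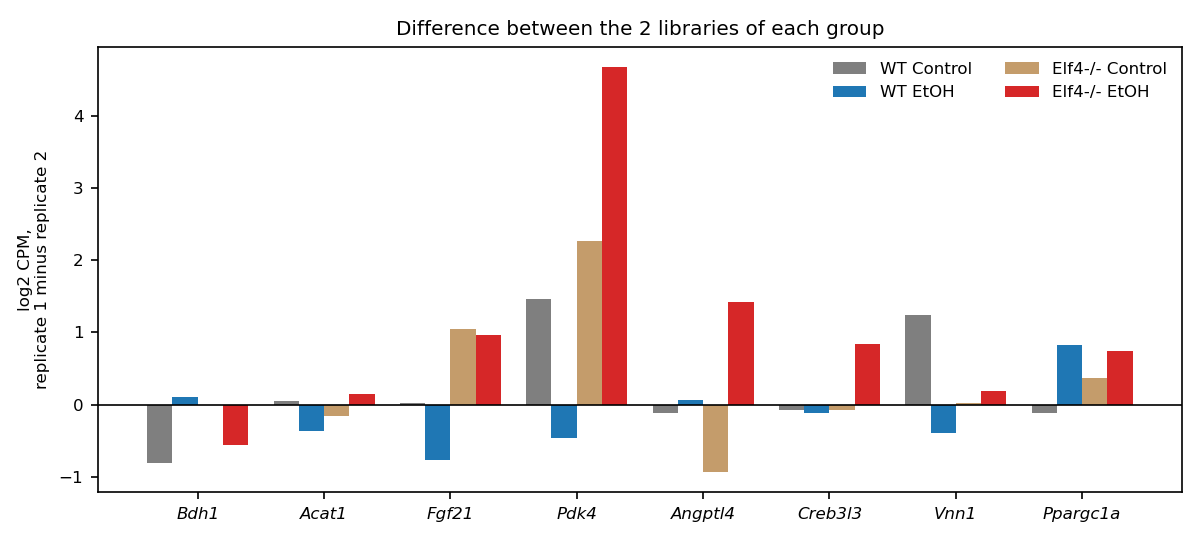
Log2 CPM of replicate 1 minus replicate 2 for each gene in each group (bars, from 0). The bar of *Pdk4* in Elf4-/- EtOH, 4.67, is the tallest, and the bars of *Angptl4* and *Creb3l3* there, 1.43 and 0.84, stand above those of the same genes in the WT groups.

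The comparison of genotypes addressed whether loss of *Elf4* in the intestine went with other levels of these genes in the liver. None of the 8 was called in either direction under EtOH, where 0.143% of all tested genes were called, nor under Control, where 0.0143% were (20 and 2 of 13993 genes with edgeR). At an unadjusted p under 0.05, 3 of the 8 passed under EtOH and 0 under Control, as did 10.5% and 7.31% of all tested genes. DESeq2 called 0 of the 8 in both, and 182 and 78 of all genes. The 3 that passed unadjusted under EtOH were *Fgf21* and *Vnn1*, lower in Elf4-/- than in WT, and *Ppargc1a*, higher in Elf4-/-. Their log2 fold changes were -1.61 ± 0.44, -0.93 ± 0.33 and 1.23 ± 0.37 (SE, edgeR adjusted p = 0.239, 0.367 and 0.275). The genotypes did not overlap for these 3 genes under EtOH, so leaving out 1 library could not turn the sign, and the kept sign is no support for a difference. With 2 libraries a group such separation also arises readily without a difference. How many of all tested genes showed it was not counted. Without 1 library the log2 fold changes ran from -2.19 to -1.17 for *Fgf21*, -1.12 to -0.73 for *Vnn1* and 0.82 to 1.70 for *Ppargc1a*. *Acat1*, *Bdh1*, *Creb3l3* and *Angptl4* lay between -0.36 and 0.09 under EtOH (adjusted p from 0.825 to 0.996).

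*Pdk4* under EtOH had a log2 fold change of -0.50 ± 0.97 between genotypes (adjusted p = 0.904). It was called lower in Elf4-/-, at -4.25 (adjusted p = 0.00563), once Elf4-/- EtOH replicate 1 was left out, and stood at 0.44 (adjusted p = 0.676) once replicate 2 was left out. Under Control the 8 values lay between -0.45 for *Fgf21* and 1.07 for *Pdk4*, with adjusted p from 0.883 to 0.994. The genotype comparisons under EtOH and the diet comparisons share the WT EtOH and Elf4-/- EtOH libraries, so their values are not independent of each other.

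The interaction tests whether the response to EtOH differed between genotypes. None of the 8 was called, where 0.0% of all tested genes were called with edgeR (0 of 13993, with 1411 at an unadjusted p under 0.05, and 107 called by DESeq2). Among the 8, 1 gene passed at an unadjusted p under 0.05 and DESeq2 called 0. The largest values were -1.57 ± 2.10 for *Pdk4* (SE, adjusted p = 0.844), 1.25 ± 0.51 for *Ppargc1a* (0.447) and -1.16 ± 0.67 for *Fgf21* (0.607). Without Elf4-/- EtOH replicate 1, *Pdk4* was called, at -5.35 (adjusted p = 0.0407), and without replicate 2 it stood at -0.65 (0.798). The WT calls of *Fgf21*, *Vnn1*, *Acat1* and *Ppargc1a*, absent in Elf4-/-, are therefore not shown to differ between genotypes.

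Among themselves the 8 genes spanned a wide range of abundance, which is compared here per kilobase of annotated exon on group means. In WT Control the order was *Creb3l3* (121), *Acat1* (40.4), *Angptl4* (33.4), *Bdh1* (29.9), *Vnn1* (16.1), *Fgf21* (4.28), *Ppargc1a* (1.85) and *Pdk4* (0.265), of which the libraries of *Bdh1* overlapped with those of both *Angptl4* and *Vnn1*. In WT Control replicate 1 *Vnn1*, at 22.7, lay above *Bdh1*, at 21.7. In WT EtOH it was *Creb3l3* (113), *Acat1* (72.0), *Vnn1* (63.7), *Angptl4* (62.5), *Pdk4* (45.6), *Bdh1* (39.2), *Fgf21* (17.8) and *Ppargc1a* (0.742), of which the libraries of *Acat1*, *Vnn1* and *Angptl4* overlapped, as did those of *Pdk4* and *Bdh1*. *Pdk4* thus moved from the last place to the level of *Bdh1*, and *Ppargc1a* took the last place.

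As a description of likeness, the 3 genes with the highest Pearson correlation of log2 CPM over the 8 libraries were taken for each gene among tested genes whose mean count reached 50. The libraries share diet groups, which shape such values, and no test was made. Nearest to *Pdk4* were *Tspan7*, *Abi3* and *Plaa* (0.989 to 0.987), to *Vnn1* *Ptgs1*, *Spg7* and *Psmd5* (0.981 to 0.972), to *Fgf21* *Clec1b*, *Mcrip1* and *Dtnbp1* (0.981 to 0.967) and to *Acat1* *Ybx1*, *Myl6* and *Coro1c* (0.982 to 0.978). Nearest to *Ppargc1a* were *Ivd*, an enzyme of leucine breakdown, *Tbc1d24* and *Agxt*, peroxisomal alanine-glyoxylate aminotransferase (0.988 to 0.964). *Bdh1* was nearest to *Prorsd1*, *Rps29* and *Usp39* (0.971 to 0.961), *Angptl4* to *Map1lc3b*, 4930523C07Rik and *Herc1* (0.943 to 0.937) and *Creb3l3* to *Col4a2*, *Ccdc9* and *Rsad1* (0.931 to 0.915).

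Markers of other cell types moved with diet in these bulk samples, in which fewer cells of a type and less RNA per cell cannot be told apart. All 6 Kupffer cell markers and all 6 sinusoidal endothelial markers were called higher in WT EtOH, as were 3 of 6 stellate cell markers, against 1, 0 and 0 in Elf4-/-. Of all tested genes, 10.8% were called higher in WT and 1.71% in Elf4-/-. Positive log2 fold changes were found in Elf4-/- for 6, 5 and 6 of these markers, with medians of 0.598, 0.625 and 0.755. None of the 3 lists had a gene called for the interaction of genotype and diet. Without 1 library the WT counts ran from 4 to 6 for Kupffer cells, 3 to 6 for sinusoidal endothelium and 2 to 4 for stellate cells, the lowest each without WT EtOH replicate 2 and, for Kupffer and stellate cells, also without WT EtOH replicate 1 and WT Control replicate 2 respectively. *Clec4f* and *Cd5l* of the Kupffer list were called lower in Elf4-/- than in WT under EtOH, by 1.32 and 1.69 on the log2 scale (edgeR adjusted p = 0.0418 and 0.0268), and neither was called without either WT EtOH or either Elf4-/- Control library. Summed, Kupffer cell markers were at 151 to 199 CPM in WT Control, 505 to 558 CPM in WT EtOH, 139 to 142 CPM in Elf4-/- Control and 188.5 to 199 CPM in Elf4-/- EtOH. Sinusoidal endothelial markers summed to 46.0 to 78.9, 231 to 280, 114 to 121.5 and 117 to 191 CPM in the same order, and stellate cell markers to 29.2 to 66.2, 230 to 299.5, 82.0 to 116 and 184 to 312 CPM. The 5 hepatocyte markers in the table (*Alb*, *Ttr*, *Apoa1*, *Serpina1a* and *Apob*) were high in every library and summed to 52420 to 71520 CPM in WT Control, 32080 to 37820 in WT EtOH, 63620 to 70130 in Elf4-/- Control and 39240 to 52860 in Elf4-/- EtOH, with *Apoa1* alone called, lower in WT by 2.34 on the log2 scale (edgeR adjusted p = 0.00592).

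Of 6 adipocyte markers, a cell type that also expresses *Angptl4* and *Pdk4*, 2 were in the table and only *Fabp4* was tested. *Fabp4* rose in WT (log2 fold change 2.34 ± 0.49, edgeR adjusted p = 0.0102), from 9.14 and 2.94 to 24.4 and 36.7 CPM. *Cfd* was at most 1.12 CPM, and the other 4 were absent from the table. Skeletal muscle markers summed to at most 9.32 CPM over 3 of 6 genes, pancreatic acinar markers to at most 9.55 CPM over 2 of 7, and none of either was called. The 3 intestinal markers of 6 that were in the table summed to 165 to 255 CPM, nearly all from *Fabp2* and *Lgals4*, with *Vil1* at 1.95 CPM or less, and none was called. The part of these cell types in the changes of the 8 genes was not tested.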

How the data were processed

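Liver RNA was extracted with Trizol and sequenced as paired ends on a HiSeq, with 2 libraries in each of 4 groups. The authors deposited whole-number read counts per gene. The submitters' processing notes name HISAT2, SAMtools, HTSeq, DESeq2 and mm10, and their versions, the annotation and the strand setting are not given in the sources used here. The table holds 19267 genes and 6171051 to 9157362 counts per library, and 0 columns of per-sample values were not used. Few counts, as for *Pdk4* and *Fgf21* under Control, limit precision, and counts show counting error only.

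From these counts, edgeR 4.0.16 in R 4.3.3 was run with TMM factors, a filter by group (filterByExpr) that left 13993 genes, 1 model of all 4 groups and the quasi-likelihood test, and p-values were adjusted across the tested genes by Benjamini and Hochberg, with a threshold of 0.05. Every adjusted p is from this test unless DESeq2 is named. Each SE was calculated back from the same test, as the absolute log2 fold change divided by the square root of its F statistic. The common biological coefficient of variation was 22.7%. Log2 CPM used a prior count of 2. The edgeR fit was also run on simulated counts with the same dispersion in every group and changes in WT EtOH alone. That run does not cover the wider spread of the Elf4-/- EtOH libraries. Alternatives were DESeq2 1.42.0, median-of-ratios factors, library totals, no mitochondrial genes, no filter, only the libraries compared, a replicate block, and leaving out each library.

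The 8 genes and the lists of related genes and markers were chosen with earlier results of these data known. From each list the genes named were those called, at most 3 per contrast by size, with all of the ketone body and FGF21 receptor lists, of which some are not reported here. *Atf4*, *Angptl8*, *Lmf1*, *Pdha1*, *Pank1*, *Vnn3*, *Ppara*, *Ehhadh*, *Plin2*, *Cpt1a*, *Fabp1* and *Klf15* were added after their values were seen. Positions and exon lengths are from GENCODE M21 on GRCm38, in which 18746 symbols (97.3%) matched 1 gene.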

Additional observations from a re-analysis of the deposited data

How the results depend on the processing

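With 2 libraries a group, precision is set by few residual degrees of freedom. *Pdk4* and *Fgf21* had under 40 counts in each Control library. Single-gene values kept their direction and side of the threshold in 634 of the alternatives run, lost the call in 23, gained it in 16 and turned sign in 30, and the causes were not tested.

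The number of genes called for EtOH against Control in Elf4-/- (404) was 811 with DESeq2 and 40 with only the libraries compared, and the number among the 8 genes (1) was 2 with DESeq2, 2 with no filter and 0 with only the libraries compared. For Elf4-/- against WT under EtOH (20) it was 182 with DESeq2, 50 with no filter and 0 with only the libraries compared. Under Control (2) it was 78, 14 and 22 in the same order, and 5 with library totals. The interaction (0) gave 107 with DESeq2 and 7 with no filter. Only the libraries compared could not be run for the average over genotypes or the interaction.

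The labels tie replicate numbers to nothing shared, and the correlations between groups of replicate deviations ran from -0.134 to 0.114 over 9398 genes. With a replicate block, 2639 genes were called in WT, 240 in Elf4-/- (0 of the 8, *Pdk4* 5.49, adjusted p = 0.0593), 3651 for the average (*Ppargc1a* called, -0.74, adjusted p = 0.0391), 10 for genotype under EtOH, 2 under Control and 0 for the interaction. Crossing the WT pairs, an alternative chosen after seeing the data, called 2919 genes in WT, against 3025.

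With library totals alone, *Creb3l3* turned to 0.34 in WT, -0.19 for genotype under EtOH and -0.18 for the interaction, *Bdh1* to -0.13 for genotype under EtOH and *Ppargc1a* to 0.22 under Control (0.014 with no filter).

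Leaving out 1 library at a time, where a lone library is assumed to vary like the others, the genes called ran from 626 to 4023 in WT (1 to 6 of the 8), 9 to 1683 in Elf4-/- (0 to 2), 2115 to 4697 for the average (3 to 5), 0 to 366 for genotype under EtOH (0 to 1), 0 to 53 under Control (0 to 0) and 0 to 139 for the interaction (0 to 1). The lowest count in WT was without WT EtOH replicate 2, and the highest in WT and in Elf4-/- were without Elf4-/- EtOH replicate 2. Log2 fold changes that turned sign ran, for diet in Elf4-/-, from -0.69 to 0.73 for *Angptl4*, -0.28 to 0.54 for *Creb3l3* and -0.50 to 0.23 for *Ppargc1a*, and for the average from -0.19 to 0.22 for *Creb3l3*. For genotype under EtOH they ran from -0.22 to 0.35 for *Bdh1*, -0.19 to 0.18 for *Acat1*, -4.25 to 0.44 for *Pdk4*, -1.24 to 0.18 for *Angptl4* and -0.42 to 0.41 for *Creb3l3*. Under Control they ran from -0.22 to 0.60 for *Bdh1*, -1.01 to 2.37 for *Pdk4*, -0.19 to 0.75 for *Angptl4*, -0.84 to 0.41 for *Vnn1* and -0.22 to 0.15 for *Ppargc1a*. For the interaction they ran from -0.50 to 0.32 for *Bdh1*, -5.35 to 0.52 for *Pdk4* and -0.18 to 0.64 for *Creb3l3*.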
